A study of Glycine max with 30 samples.

Results

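The comparison set H3K27me3 in soybean seedlings against H3K27me3 in mid-maturation embryos, that is, vegetative growth against seed filling. Its members were the islands, the contiguous stretches of enriched windows called by the authors, in the pooled list of each stage. Each list was first cleared of the 5% of its islands with the lowest ratio of ChIP reads to control reads. This left 18723 of 19708 seedling islands and 14889 of 15672 mid-maturation islands, or 33612 of the 88315 H3K27me3 islands that 5 stages of the series held.

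All plants were Glycine max cultivar Williams 82. Seedlings were collected 8 days after sowing per the protocol, or after imbibition per the design text, with no organ named, and mid-maturation embryos were dissected from seeds of 200 to 250 mg. Both tissues were crosslinked for 10 min in 1% formaldehyde, chromatin was sheared to fragments of 100 to 500 bp, and libraries received 15 PCR cycles. Each stage had 2 biological replicates precipitated with 10 µg of an H3K27me3 antibody and 2 precipitated with 3 µg of an antibody against total H3, which served as control. The authors pooled the replicates into 1 list per stage, so no spread between replicates could be computed from the lists and no difference below was tested. Both samples are mixtures of cell types, in which fewer marked cells and less mark per cell cannot be told apart.

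H3K27me3 is deposited by Polycomb repressive complex 2 and marks genes that are held silent. In plants it covers whole gene bodies, is passed through cell division, and forms separate gene-sized domains as well as long blocks. In Arabidopsis the complex is needed after germination to keep the genes of embryo and seed maturation silent, and in the seed many genes of vegetative and floral development carry the mark. H3K4me3, which was mapped in the same tissues, lies at the starts of expressed genes, so a place with both marks in a tissue of many cell types can stand for different cells.

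The 2 lists covered almost the same length with different numbers of islands. Seedling islands covered 81.2 Mb and mid-maturation islands 81.7 Mb. Median width was 3000 bp in seedlings (interquartile range 1800 to 5400 bp) and 4000 bp at mid-maturation (2400 to 7000 bp). Islands of at most 1000 bp made up 10.1% of the seedling list (1892 islands) and 4.99% of the mid-maturation list (743 islands). At the other end, 202 seedling islands and 280 mid-maturation islands were 20000 bp or wider. The widest seedling island spanned 76800 bp, chr18:58508201-58585000, and the widest mid-maturation island spanned 92400 bp, chr18:58516601-58609000. These are the same place, and its islands in the 2 lists stood at 1.41 and 1.31 times their list medians of ChIP over control, in seedlings and at mid-maturation.

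Depth in the islands was similar for the ChIP and not for the control. Kept islands held 9997555 ChIP reads and 6298899 control reads in seedlings, against 9827707 ChIP reads and 3724143 control reads at mid-maturation. The median ratio of ChIP to control reads was 1.39 in seedlings and 2.16 at mid-maturation. The authors' fold, which carries a constant for each list, had medians of 2.39 in seedlings and 3.18 at mid-maturation. Each island's ratio was divided by the median of its list before the stages were set side by side, which removes any difference between the lists as wholes. The lowest kept ratio was 0.562 of the median in seedlings and 0.499 of the median at mid-maturation.

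Most of the H3K27me3 of each stage lay where the other stage had it too. An island was called shared if it overlapped an island of the other list by at least 1 bp, and private if it did not. Private islands numbered 4338 in seedlings, 23.2% of the list (95% Clopper-Pearson interval 22.6 to 23.8%), and 1964 at mid-maturation, 13.2% of the list (12.7 to 13.7%). These intervals, like all those below, cover counting error only, and neighbouring islands are not independent. Measured in bases, the lists were even: 63.9 Mb lay in both, which was 78.7% of the seedling bases and 78.2% of the mid-maturation bases.

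The direction of the difference in private share rested on where each list was cut. With the lists brought to an equal number of islands, the highest by ratio, 16.2% of seedling islands and 23.3% of mid-maturation islands were private. With the authors' fold of at least 3 in both lists, the shares were 19.6% in seedlings and 54.1% at mid-maturation. The seedling list was deposited with false discovery rates (FDR) of up to 0.491 and the mid-maturation list with values of up to 0.0494. After removal of the lowest 5%, which took out all 310 seedling islands with an FDR above 0.05, the highest values were 0.00739 in seedlings and 0.000754 at mid-maturation.

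The unshared bases had different forms at the 2 stages. Of 17.3 Mb marked in seedlings alone, 53.2% (9.21 Mb) lay in private islands. Of 17.8 Mb marked at mid-maturation alone, 26.4% (4.71 Mb) lay in private islands, and the other 13.1 Mb lay at the edges of shared islands or in gaps between seedling islands. This contrast rested on where the lists were cut. With equal numbers of islands, 41.9% of the seedling-only and 45.1% of the mid-maturation-only bases lay in private islands, and under the authors' fold limit of 3, 53.0% and 78.8%. The shares of bases found at both stages were then 83.5% of the seedling and 72.1% of the mid-maturation bases with equal numbers, and 86.2% and 44.7% under the fold limit.

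Private islands were narrow. The median width was 1800 bp for private and 3600 bp for shared islands in seedlings, and 2000 bp for private and 4600 bp for shared islands at mid-maturation. They were also weaker than shared ones: the median ratio over the list median was 0.792 for private and 1.08 for shared islands in seedlings, and 0.758 and 1.05 at mid-maturation. In seedlings 49 of 4338 private islands reached 2 times the list median, against 255 of 14385 shared ones. At mid-maturation 15 of 1964 private islands did, against 422 of 12925 shared ones. The distance from a private island to the nearest island of the other list had a median of 10.2 kb in seedlings and 10.1 kb at mid-maturation. In seedlings 17.2% and at mid-maturation 19.9% of private islands lay within 2 kb of one.

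**Figure D1:**
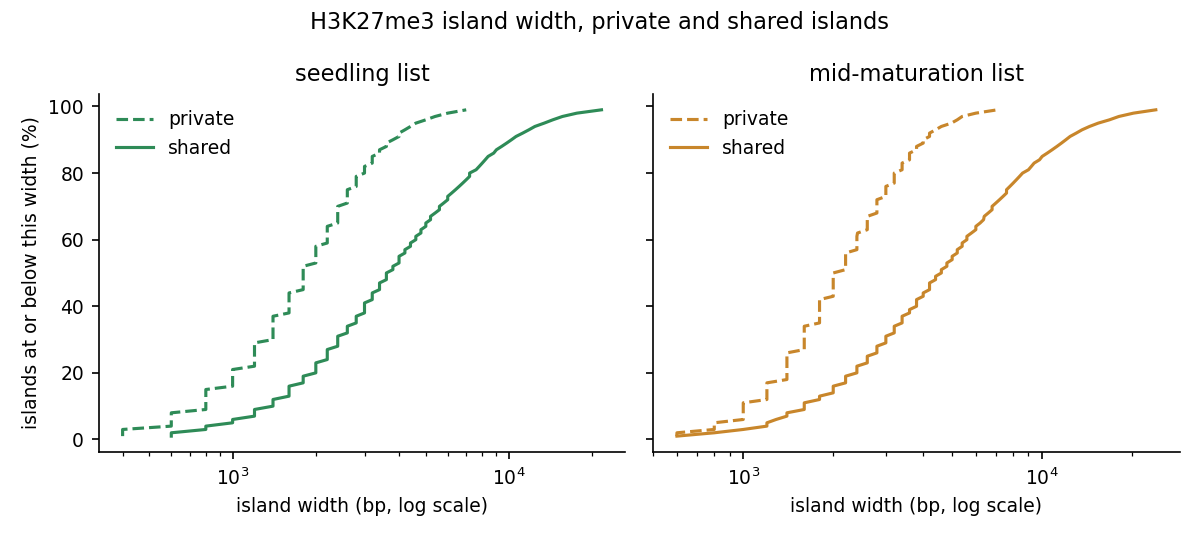
Cumulative percentage of islands (y axis) at or below a given width in bp (x axis, log scale), for the seedling list on the left and the mid-maturation list on the right, with private islands dashed and shared islands solid, drawn from the 1st to the 99th percentile. At both stages the private curve lies left of the shared curve, with medians of 1800 against 3600 bp in seedlings and 2000 against 4600 bp at mid-maturation.

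The private share depended strongly on width at both stages. Of seedling islands up to 1000 bp, 49.7% were private, of those over 4000 and up to 8000 bp 7.13%, and of those over 16000 bp 0.251%, which was 1 of 399. Of mid-maturation islands up to 1000 bp, 31.0% were private, of those over 4000 and up to 8000 bp 3.94%, and none of the 565 over 16000 bp. The share followed the ratio as well. Among the 20% of islands with the lowest ratios it was 50.7% in seedlings and 25.7% at mid-maturation, and among the 20% with the highest ratios it was 7.80% in seedlings and 2.85% at mid-maturation. An overlap of 1 bp is met more easily by a wide island, so the covered part was measured too. Islands of the other list covered at least 50% of the width of 98.7% of seedling islands and 99.5% of mid-maturation islands over 16000 bp, against 49.6% and 68.5% of those up to 1000 bp.

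**Figure D2:**
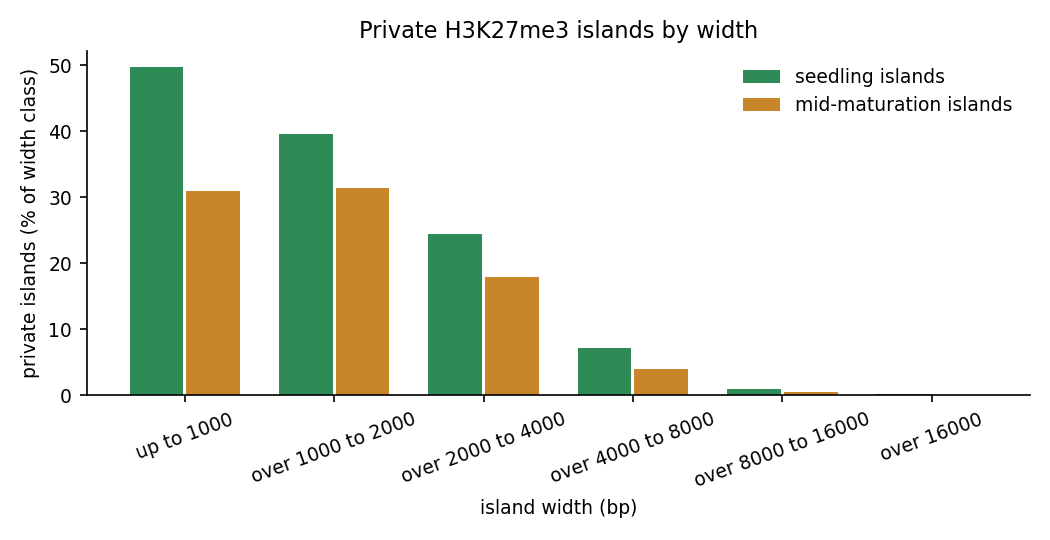
Percentage of islands that are private (y axis) in 6 classes of island width in bp (x axis), for seedling islands (green, left bar) and mid-maturation islands (orange, right bar). The share is 49.7% of seedling and 31.0% of mid-maturation islands up to 1000 bp, and 0.251% and 0% of those over 16000 bp.

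The private islands with the highest ratios, among those with at least 50 ChIP and 20 control reads, were short. In seedlings the first was chr14:4161401-4162000, 600 bp with 276 ChIP and 48 control reads, or 4.12 times the list median. It had an H3K4me3 peak at both stages, and islands at the cotyledon stage, early maturation and late maturation at 4.70, 2.95 and 1.96 times their list medians. Of all 5 stages, mid-maturation alone had no island there. The next were chr20:31642201-31643000 at 3.77 times and chr17:6673801-6674200 at 3.46 times the seedling median. Both lay on mid-maturation islands that the 5% limit had removed, with ratios of 1.07 and 0.936, so a stretch was listed there at both stages before the limit.

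At mid-maturation the private island with the highest ratio was chr10:45303001-45306000, 3000 bp with 232 ChIP and 44 control reads, or 2.44 times the list median. It was an island at the cotyledon stage, early maturation and late maturation too, at 1.69, 1.41 and 1.68 times their medians, and had no H3K4me3 peak at either stage. The mark there was found in all 4 embryo lists and not in the seedling list. The next were chr3:13428001-13429000, 1000 bp at 2.30 times the median, and chr17:13456201-13457000, 800 bp at 2.28 times. Control density at these 3 islands was 0.324, 0.463 and 0.690 of the list median, below that of most islands of the list.

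Among wide private islands the stages differed in kind. The 3 widest in seedlings were chr15:19611001-19640800 (29800 bp), chr11:36381001-36391800 (10800 bp) and chr8:44213801-44224600 (10800 bp), and their ratios were 0.575, 0.608 and 0.578 of the median, just above the limit of 0.562. Each lay on a mid-maturation island that had been removed by the limit. The first held 21688 ChIP and 27064 control reads, a control density 11.7 times the list median. The 3 widest at mid-maturation were chr1:49047601-49059200 (11600 bp), chr19:1589601-1601200 (11600 bp) and chr13:35754201-35765600 (11400 bp), at 1.41, 0.948 and 1.01 times the median. All of these were islands at the cotyledon stage, early and late maturation as well. The chr19 island lay in part on a removed seedling island with a ratio of 0.741. The chr1 and chr13 islands met no seedling island, kept or removed, and the chr1 island had an H3K4me3 peak in seedlings and none at mid-maturation.

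Just inside the limit, the 3 seedling islands had ratios of 0.784 each and the 3 mid-maturation islands 1.08 each. Just outside it, the 3 seedling islands had 0.784 each and the 3 mid-maturation islands 1.08 each. Of private islands, 268 in seedlings (6.18%) and 92 at mid-maturation (4.68%) lay on an island of the other list that had been removed.

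Shared islands were next grouped into connected sets, 12310 in all. In 10168 sets (82.6%) 1 seedling island met 1 mid-maturation island. In 1578 (12.8%) a mid-maturation island met several seedling islands, called split in seedlings, and in 375 (3.05%) a seedling island met several mid-maturation islands, called joined in seedlings. The other 189 sets held several of each. Splits outnumbered joins under each alternative that kept both kinds. With islands of a list that lay less than 2000 bp apart joined first, 532 splits and 365 joins were counted.

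A typical split was a long mid-maturation domain with a short break in seedlings. The median width of the undivided mid-maturation island was 10000 bp, 86.2% were cut in 2 pieces, and the seedling pieces together had a median of 85.2% of the undivided width. Of the 1835 gaps, 66.1% measured at most 1000 bp, and none was under 800 bp, the least that the gap setting of 600 bp allows. Joined islands were alike in form, with a median undivided seedling width of 9400 bp, 92.0% made of 2 mid-maturation pieces, and 59.1% of 406 gaps at most 1000 bp. Most gaps held no H3K4me3 peak, and the rate in other stretches of like width was not taken. In the gaps of split islands, 6.49% had a seedling peak and 4.85% a mid-maturation peak, with 57 that had the seedling peak alone, 27 the mid-maturation peak alone and 62 both. In the gaps of joined islands, 11.6% had a seedling peak and 12.8% a mid-maturation peak.

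Fragmentation followed width, and at equal width it was more frequent for mid-maturation islands facing seedlings. Among shared islands over 8000 and up to 16000 bp, 12.5% of seedling islands met at least 2 mid-maturation islands, while 33.8% of mid-maturation islands met at least 2 seedling islands. Among islands of 20000 bp or more, 61 of 202 seedling islands (30.2%) and 163 of 280 mid-maturation islands (58.2%) did so.

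**Figure D3:**
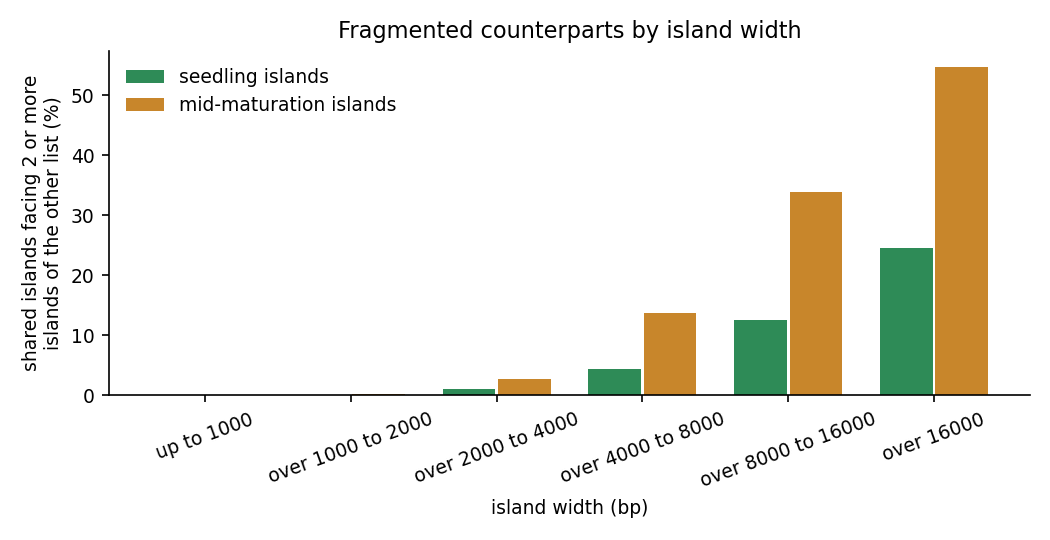
Percentage of shared islands that overlap at least 2 islands of the other list (y axis) by island width in bp (x axis), for seedling islands (green, left bar) and mid-maturation islands (orange, right bar). In the class over 8000 and up to 16000 bp the values are 12.5% for seedling islands and 33.8% for mid-maturation islands.

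The most divided mid-maturation islands were chr13:8071801-8116800 (45000 bp) and chr4:457001-492000 (35000 bp), each facing 5 seedling islands. On chromosome 13 the pieces summed to 44600 bp and reached past the end of the undivided island to base 8121600. Their pooled ratio was 1.30 times the seedling median, against 1.39 times the mid-maturation median for the undivided island. On chromosome 4 the pieces summed to 27800 bp, or 79.4% of the undivided width, with 1.01 and 1.20 times the median in seedlings and at mid-maturation. This region had 5 H3K4me3 peaks in seedlings and 3 at mid-maturation, whereas the chromosome 13 region had 1 in seedlings and 5 at mid-maturation. In the opposite direction, the seedling island chr12:8016601-8041000 (24400 bp) faced 4 mid-maturation islands that summed to 50.8% of its width, and chr2:11719401-11760000 (40600 bp) faced 3 that summed to 90.6%. Neither had an H3K4me3 peak at either stage.

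In the 10168 1-to-1 pairs the islands were alike in width. The median was 3600 bp in seedlings and 4000 bp at mid-maturation, with a median log2 width ratio of seedlings over mid-maturation of −0.080. The seedling island was narrower in 55.4% of pairs, wider in 34.1% and of equal width in 10.6%. A difference of at least 2-fold was less common: 950 pairs (9.34%) were narrower and 533 (5.24%) wider in seedlings. The seedling island lay inside the mid-maturation island in 4611 pairs, the mid-maturation island inside the seedling island in 2403, both ends were offset the same way in 2436, and the 2 islands were identical in 718. The left edges lay within 400 bp of each other in 57% of pairs, the right edges also in 57%, and both edges in 33.5%, on a grid of 200 bp windows. Across pairs the log2 widths had a Pearson r of 0.81, a description only, since pairs are not replicates.

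Relative ChIP over control differed by less than 2-fold in most pairs, though by more than the counting interval in many. The difference, log2 of the seedling ratio over its list median minus the same for mid-maturation, had a median of 0.028, with an interquartile range of −0.24 to 0.34. In 57.4% of pairs the 95% counting interval of the difference, which had a median reach of 0.35 to either side, held 0. At least 2-fold higher in seedlings were 314 pairs, 3.09% of all, and at least 2-fold lower were 80, 0.787% of all. The median and this split depend on the scaling: with the authors' fold and no division by the median, the median difference was −0.39, with 156 pairs higher and 586 lower. Across pairs, log2 ratios of the 2 stages had a Pearson r of 0.50, again as a description.

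The difference had a gradient with width. The median difference was 0.59 in the 359 pairs with a mean width of at most 1000 bp, 0.19 up to 2000 bp, 0.11 up to 4000 bp, −0.034 up to 8000 bp and −0.17 up to 16000 bp as well as above. Of the narrowest pairs 36.2% (130) were 2-fold higher in seedlings, against 3.09% of all pairs. Relative to its own list, then, the seedling ratio stood higher in narrow pairs and the mid-maturation ratio stood higher in wide ones. Control density differed with width too. In pairs of at most 1000 bp it was 1.23 times the list median in seedlings and 1.49 times at mid-maturation. In pairs over 8000 and up to 16000 bp it was 0.962 and 1.00 times. The part of control density in the gradient was not tested. Pairs over 8000 and up to 16000 bp had medians of 1.28 times the list median in seedlings and 1.46 times at mid-maturation, and pairs of at most 1000 bp had 1.29 times in seedlings and 0.717 times at mid-maturation.

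The pairs that were 2-fold higher in seedlings were narrow, with a median width of 1400 bp in both lists. Of the 314, 157 included an island of at most 1000 bp, against 846 of all 10168 pairs. Control reads moved with this result. The median control density in these pairs was 1.09 times the list median in seedlings and 1.73 times at mid-maturation. A mid-maturation control density of at least 2 times the median was found in 145 of the 314, against 187 of all 10168 pairs. Of the 187 pairs with such a control density, 77.5% were called higher in seedlings. In seedlings such a control density was found in 69 pairs, of which 11 (15.9%) were higher and 1 lower. Both stages had it in 23 of these, with 8 higher. In the 9935 pairs below this density at both stages, 166 were higher and 79 lower, and in the 9322 pairs with both islands over 1000 bp, 157 were higher and 76 lower. An H3K4me3 peak was present in 30.6% of the 314 in seedlings and in 31.5% at mid-maturation. All pairs with a mean width over 1000 and up to 2000 bp had 33.4% and 33.3%. The 314 were uneven in this. The 145 with the high mid-maturation control density had a peak in 7.59% in seedlings and 5.52% at mid-maturation. The 157 with both islands over 1000 bp had one in 46.5% and 47.8%, against 45.4% and 44.5% of all such pairs. How much the control contributed to the 314 was not tested.

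**Figure D4:**
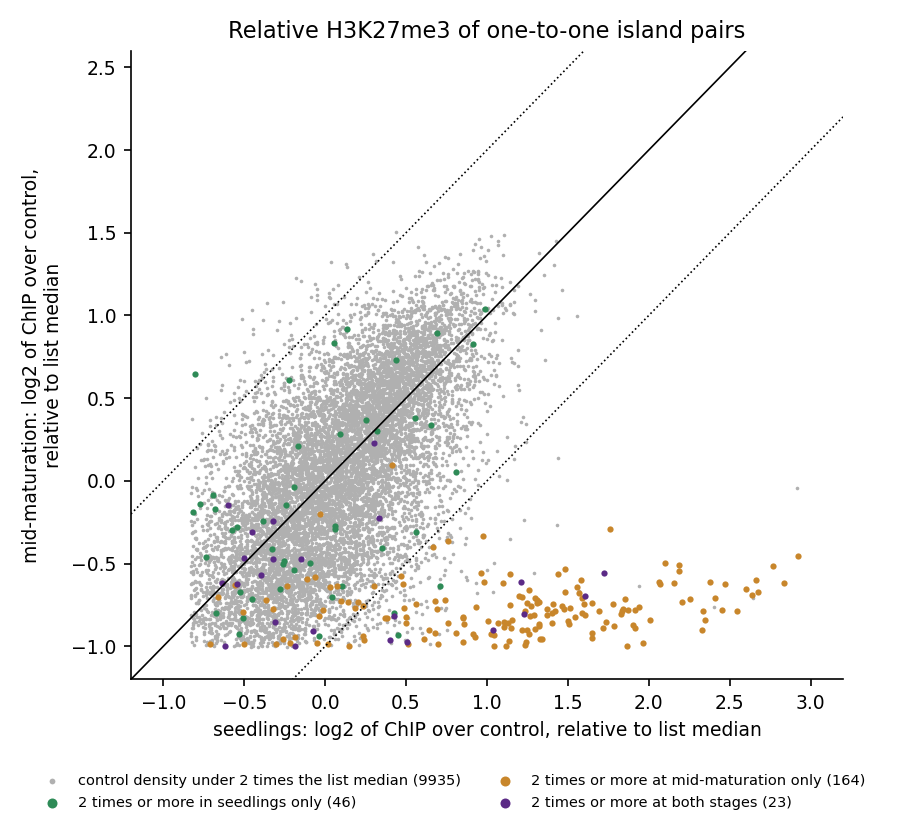
Each point is a 1-to-1 pair, with log2 of ChIP over control relative to the list median in seedlings on the x axis and at mid-maturation on the y axis; the solid line marks equality and the dotted lines a 2-fold difference. Grey points have a control density under 2 times the list median at both stages (9935 pairs), and coloured points have 2 times or more in seedlings alone (green), at mid-maturation alone (orange, 164 pairs) or at both (purple, 23 pairs), so that the arm at the lower right is mainly orange.

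The 4 pairs with the highest difference had identical islands of 400 to 1000 bp at the 2 stages. At chr2:40037801-40038400, seedlings had 286 ChIP and 27 control reads and mid-maturation 172 ChIP and 109 control reads, or 7.60 and 0.731 times the list medians, with a difference of 3.38 (95% counting interval 2.71 to 4.04). The pair chr13:4972401-4973400 had 848 ChIP and 104 control reads in seedlings, against 466 ChIP and 372 control reads at mid-maturation, a difference of 3.33 (2.98 to 3.69). The other pairs, chr18:3567201-3567600 and chr4:4307401-4308000, differed by 3.33 and 3.28. None had an H3K4me3 peak at either stage. ChIP density was higher in seedlings at each of the 4 sites, for example 477 reads per kb in seedlings and 287 at mid-maturation on chromosome 2. Control density was lower in seedlings, 0.581 to 1.34 times the list median, against 3.97 to 8.21 times at mid-maturation.

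The 4 sites also had unequal levels at the other stages. There the ratio was 2.78 to 5.10 times the list median at the cotyledon stage and 3.45 to 6.50 times at early maturation, but 0.804 to 0.833 times at late maturation, where the control density was 5.07 to 20.1 times the median. Over the 157 higher pairs with an island of at most 1000 bp, the median ratio in developmental order, from cotyledon-stage embryos to seedlings, was 1.49, 2.29, 0.591, 0.778 and 2.36 times the list median. Control density in them was 1.46, 1.84, 3.14, 5.98 and 1.13 times the list median in the same order. The stages with the lowest ratios, mid- and late maturation, were those with the highest control density. The seedling and mid-maturation ratios are fixed by the choice of these pairs, and control reads are the denominator of every ratio. From the cotyledon stage to early maturation, ratio and control density both rose. The part of the control in these ratios was not tested. Late maturation embryos were crosslinked for 15 min on ice after grinding, so that their values come from another protocol; mid-maturation embryos and seedlings shared theirs.

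The 80 pairs that were 2-fold lower in seedlings had another character. Their median width was 3600 bp in seedlings and 5400 bp at mid-maturation. Of the 80, 4 included an island of at most 1000 bp, against 846 of all 10168 pairs. Control density was near the median at both stages, 1.05 times in seedlings and 0.944 times at mid-maturation. The median ratio was 0.770 times the list median in seedlings, against 1.74 at mid-maturation, and at the earlier stages it was 1.64 at the cotyledon stage and 1.47 at early maturation. At late maturation it was 1.31. Over all pairs these 3 embryo lists had medians of 1.27, 1.04 and 1.09 in developmental order. The seedling and mid-maturation values are fixed by the choice of these pairs. An H3K4me3 peak was present in 66.3% of the 80 in seedlings and in 57.5% at mid-maturation, against 44.5% and 43.5% of all pairs, and against 50.3% and 49.0% of all pairs with a mean width over 4000 and up to 8000 bp.

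The pair with the lowest difference was chr4:1950601-1953000 in seedlings, inside chr4:1948601-1953200 at mid-maturation. It held 173 ChIP and 177 control reads in seedlings, against 713 ChIP and 168 control reads at mid-maturation, or 0.701 and 1.97 times the list medians, a difference of −1.49 (−1.88 to −1.10). The region had 2 H3K4me3 peaks in seedlings and none at mid-maturation. The seedling islands chr9:40310201-40311200, chr13:38141201-38142000 and chr12:223001-225200 differed from their mid-maturation partners by −1.48, −1.45 and −1.44. On chromosome 13 an 800 bp seedling island stood in place of a 5000 bp mid-maturation island, with 0.574 and 1.56 times the list medians. That seedling island had a control density of 2.26 times the list median, whereas the other 3 pairs had control densities of 0.806 to 1.21 times at the 2 stages.

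Private islands were then looked up at stages that had not entered their choice. Of the seedling-private islands, 67.9% overlapped an island of the cotyledon stage, 23.0% one of early maturation and 39.0% one of late maturation, which was prepared by the other protocol. At none of these 3 stages lay 1064 (24.5%; interval 23.3 to 25.8%), and at all 3 lay 624 (14.4%). Of the mid-maturation-private islands, 93.3% overlapped a cotyledon-stage island, 63.7% an early and 72.5% a late maturation island. At none lay 45 (2.29%; 1.68 to 3.05%), and at all 3 lay 933 (47.5%). Of the shared islands of either stage, 91.4% or more overlapped each of the 3 lists. The difference between the 2 private sets held at matched width: among islands over 1000 and up to 4000 bp, 19.6% of seedling-private and 62.6% of mid-maturation-private islands overlapped an early maturation island, against 88.1% and 84.1% of shared islands of the same widths.

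Most places of both private sets were thus marked at another embryo stage. The share marked at none of the 3 was 24.5% of seedling-private and 2.29% of mid-maturation-private places. The seedling-private places lack a kept mid-maturation island by definition, and 268 of them (6.18%) lay on a removed one. The lists differ in length and depth, and the part of this in the order of the stages was not tested.

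H3K4me3 divided the 2 private sets as well. A seedling peak overlapped 39.5% of seedling-private and 22.8% of mid-maturation-private islands, and a mid-maturation peak 39.5% and 19.1%. Among shared islands the seedling peaks met 43.1% of seedling and 45.5% of mid-maturation islands, which are wider. At a width over 1000 and up to 4000 bp, a seedling H3K4me3 peak met 39.0% of seedling-private and 20.4% of mid-maturation-private islands, against 33.1% and 33.0% of shared islands. In seedling-private islands H3K4me3 was as often in seedlings alone (256, or 5.90%) as at mid-maturation alone (257, or 5.92%). These shares were close to the 5.82% and 5.52% of shared seedling islands. At both stages it was in 1458 seedling-private islands, or 33.6%, against 37.3% of the shared ones, which are wider. In mid-maturation-private islands it was in seedlings alone in 108, or 5.50%, against 6.11% of shared mid-maturation islands. It was at mid-maturation alone in 36, or 1.83%, against 5.66% of shared ones. Both stages had it in 339, or 17.3%, against 39.4% of shared ones. These shares by stage were not taken at matched width. With the 50% of H3K4me3 peaks with the highest scores, a seedling peak met 10.4% of seedling-private and 11.5% of mid-maturation-private islands, so the order of the 2 sets turned round for seedling peaks. Seedling-private islands then had the peak in seedlings alone in 105 (2.42%) and at mid-maturation alone in 239 (5.51%), so these counts were no longer equal. Mid-maturation-private islands had it in seedlings alone in 124 (6.31%) and at mid-maturation alone in 2 (0.102%). For mid-maturation peaks the shares were 13.5% of seedling-private and 5.24% of mid-maturation-private islands. No share of shared islands is at hand for these higher-scoring peaks. Whether the counts are particular to private islands was not tested.

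**Figure D5:**
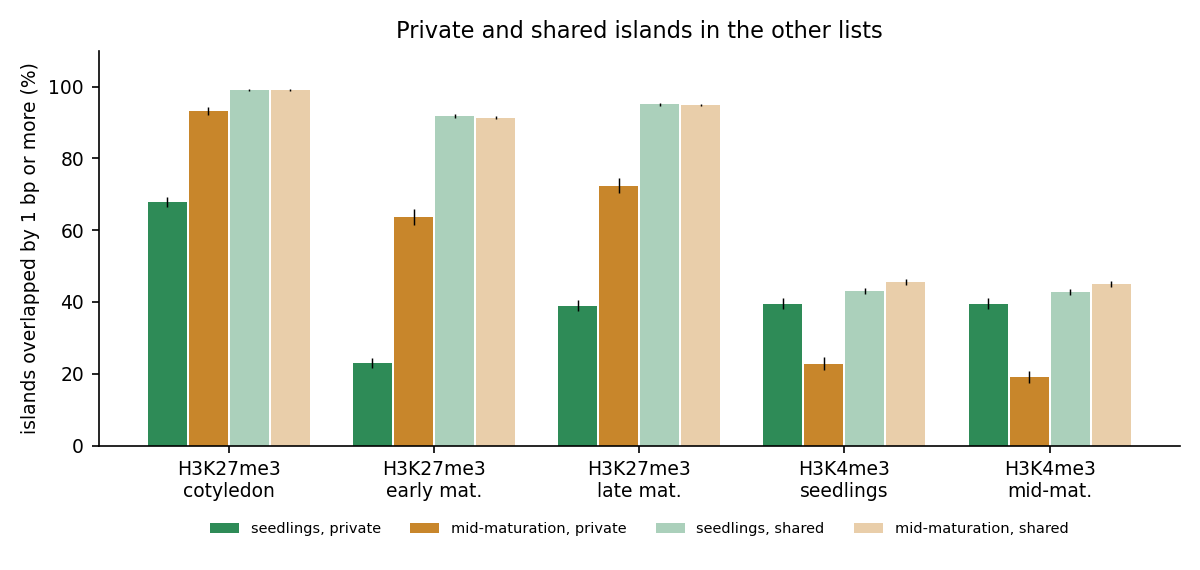
Percentage of islands (y axis) overlapped by at least 1 bp by an H3K27me3 island of 3 other stages or by an H3K4me3 peak of either stage (x axis), for private islands of seedlings and of mid-maturation (full colour) and shared islands of each (pale); error bars are 95% Clopper-Pearson intervals of counting error. Early maturation islands overlap 23.0% of seedling-private and 63.7% of mid-maturation-private islands, and 91.8% and 91.4% of the shared ones.

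Private islands lay along the whole of the 20 chromosomes. The private share per chromosome ran from 19.8% on chromosome 9 (interval 17.3 to 22.4%) to 27.3% on chromosome 17 (24.4 to 30.3%) in seedlings, and from 11.3% on chromosome 16 (9.0 to 13.9%) to 15.7% on chromosome 11 (13.1 to 18.7%) at mid-maturation. Each chromosome was cut into 5 zones by the distance from its nearest end to its middle, each 20% of that distance, with no centromere position used. In the zone nearest the end 22.2% of seedling and 12.6% of mid-maturation islands were private, and in the zone nearest the middle 25.6% and 14.7%. Pairs 2-fold higher in seedlings made up 2.54% of pairs in the zone nearest the end and 4.70% in the zone nearest the middle. Pairs 2-fold lower in seedlings made up 1.22% in the zone nearest the end (44 of 3620). There were 0 of 702 in the zone nearest the middle, which allows a share of up to 0.427%.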

How the data were processed

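ChIP-seq was deposited for 30 samples in 15 groups; the 8 behind this comparison are 2 replicates each of H3K27me3 and H3 in seedlings and mid-maturation embryos. The authors' H3K27me3 lists have the layout of SICER, whose window is 200 bp and whose gap is 600 bp. They give the deposited read counts of ChIP and control in each island, the authors' fold, and the authors' FDR, a q-value. Dividing that fold by the ratio of the counts gives 1 constant per list, 1.71 in seedlings and 1.48 at mid-maturation. The deposited H3K4me3 peaks carry a score whose meaning is not stated. Per the submitters' processing notes, Bowtie 0.12.7, SAMtools 0.1.19, MACS2 and SICER 1.1 were used, with no roles given. The mid-maturation list was matched to its samples by its stage code, since the labels name no list.

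The build is not given in the sources used here. The lists reach base 62288266 of chromosome 18, past the last gene at 58285519 in the RefSeq table of Glycine_max_v4.0, so no gene names or sequences were used. Positions are as in the lists, counted from 1.

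The lowest 5% of every H3K27me3 list by ChIP over control counts was removed, ties by position. Islands were compared by an overlap of 1 bp (Python 3.11.15, numpy 2.4.6, pandas 2.3.3, scipy 1.17.1). Counting intervals of a pair's difference come from its 4 read counts at 95%. A position in a chromosome is relative to the furthest region end in the 10 lists. H3K4me3 peaks outside the 20 chromosomes were left out. The calls of shared, private, split and joined islands were tested on simulated lists of well separated islands. The relative difference of pairs was tested on simulated counts with counting noise alone. The other steps were not simulated. Single libraries were not analysed here; in kept islands the least count was 40 ChIP reads in seedlings and 45 at mid-maturation, and reads after PCR are not independent molecules.

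Named places are the 3 private islands per list with the highest ratio (at least 50 ChIP and 20 control reads) and the 3 widest, the 4 pairs with the highest and the 4 with the lowest difference under the same minimum, the 2 most divided groups each way, the widest island of each list, and the 3 islands on each side of the 5% limit. Members, lists and rules were chosen with earlier results of these data known.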

Additional observations from a re-analysis of the deposited data

Results flagged for a closer look

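Islands removed by the 5% limit enter the report in a few places and the alternative with no limit, and a share of them lay on a kept island of the other stage. Of 985 removed seedling islands, 243 (24.7%; 95% Clopper-Pearson interval 22.0 to 27.5%) overlapped a kept mid-maturation island, against 76.8% of kept seedling islands. Of 783 removed mid-maturation islands, 505 (64.5%; 61.0 to 67.9%) overlapped a kept seedling island, against 86.8% of kept mid-maturation islands. The removed islands had a median width of 2400 bp in seedlings and 2600 bp at mid-maturation, and a median of the authors' fold of 1.20 in seedlings and 1.45 at mid-maturation. What sets the 2 shares apart was not tested.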

How the results depend on the processing

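No paired analysis was possible because both replicates of a stage share 1 list, and leaving out a replicate was not run. The limits are the 1 list per stage, control depth that differs between the stages, and thresholds that the lists do not share. The number of splits over joins and the narrower seedling islands kept their direction under every alternative run that yields them. For the values below, the cause was not tested.

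The private share (seedlings minus mid-maturation, 9.98 points) was 9.04 with an FDR of at most 0.05 in place of the 5% limit, 13.6 with an overlap of 50% of both islands, 11.2 with islands under 2000 bp apart joined, and 7.42 with islands of at least 1000 bp. It turned to −7.05 with equal numbers of islands (2415 seedling and 3464 mid-maturation private islands) and to −34.6 with the authors' fold of at least 3 (955 and 4419). With the overlap of 50%, 8820 seedling and 4986 mid-maturation islands were private, and split, joined and several-to-several sets were 0 by construction.

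With a fold of at least 3, there were 3252 1-to-1 pairs, 251 split, 96 joined and 22 several-to-several sets. Joining islands under 2000 bp apart left 532 split and 48 several-to-several sets. Median width was 4600 bp in seedlings and 5800 bp at mid-maturation with a fold of at least 3, and 3400 bp in seedlings with equal numbers. At mid-maturation it was 3800 bp with no limit or with the FDR, and 4200 bp with 10% removed or with islands of at least 1000 bp. The median log2 width ratio of pairs was −0.14 with a fold of at least 3 (65 wider, 442 narrower) and −0.088 with the overlap of 50% (67 wider, 174 narrower).

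The median relative difference of 0.028 turned to −0.082 with equal numbers, −0.18 with a fold of at least 3, −0.0052 with the overlap of 50%, −0.043 with the median of the 1-to-1 islands, and −0.39 with the authors' fold undivided. It was 0.0099 with both islands over 1000 bp, an alternative chosen after seeing the data, as was the limit on control density. Pairs higher in seedlings numbered 2 with a fold of at least 3, 156 with the fold undivided, 157 with both islands over 1000 bp and 166 with the limit on control density. Pairs lower numbered 2 with a fold of at least 3 and 586 with the fold undivided.

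Mid-maturation-private islands at none of the 3 other stages numbered 70 with an overlap of 50%. With the 50% of H3K4me3 peaks with the highest scores, seedling peaks met 452 seedling-private and 225 mid-maturation-private islands, and mid-maturation peaks met 586 and 103.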
